A study of Mus musculus with 7 samples.

Results

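The Oas1 genes Oas1c, Oas1d, Oas1e, Oas1g and Oas1h are 5 of the 24319 rows of an expression table of mouse SCNT embryos (somatic cell nuclear transfer). They were taken by symbol as a set of paralogues, most of them known from oocytes. The set was selected on 1 measured value, the lower FPKM of Oas1e in embryos with melatonin than in those from warmed oocytes without it. All 5 are in the table. Of these, 4 passed the filter of an FPKM (fragments scaled to transcript length and to the mapped fragments of the library) of at least 1 in 2 or more libraries, and Oas1g did not.

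SCNT places the nucleus of a somatic cell, here a cumulus cell from around the oocyte, into an oocyte without its own chromosomes. The 7 libraries were labelled as 2-cell embryos of the B6D2F1 strain with a wild-type genotype, and the embryos of all groups had received mRNA for the histone demethylase Kdm4a by injection. In CROC+K+M (2 libraries) the recipient oocytes had been vitrified and warmed, and the embryos were exposed to 10 µM melatonin. In CROC+K (3 libraries) they came from vitrified and warmed oocytes without melatonin, and in FOC+K (2 libraries) from fresh oocytes without melatonin. Each library held a pool of 50 to 100 embryos, so no value belongs to 1 embryo. The treatment protocol, common to all libraries, names blastocysts beside 2-cell embryos.

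Oligoadenylate synthetases are known as sensors of double-stranded RNA. On binding it, the active enzymes make short 2′-5′-linked oligoadenylates, which set off the breakdown of RNA in the cell, and interferon raises their expression in most tissues. In mice the Oas1 gene has been duplicated into a cluster, and several copies are transcribed mainly in oocytes. The best known of these is Oas1d, whose protein lacks synthetase activity and whose loss lowers female fertility.

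The sequences show how far the copies differ, which decides how well short reads can be assigned to each. The 8 genes Oas1a to Oas1h lie together on chromosome 5, in the order Oas1e, Oas1c, Oas1b, Oas1f, Oas1h, Oas1g, Oas1a and Oas1d in GENCODE M21. Over their coding sequences, Oas1e was 90.9% identical to Oas1d and 85.5% identical to Oas1c. Oas1h was 77.9% to 78.7% identical to these 3 genes. Oas1g stood with Oas1a, the interferon-inducible active synthetase, at 96.7% identity, against 72.6% with Oas1e. The 60 coding bases below are the ungapped stretch in which the 5 members differ at the most positions, 36 of 60. Capitals mark a base that 1 member alone has among the 5. Oas1a, the close copy of Oas1g, is shown in lower case throughout for comparison. The stretch covers coding bases 466 to 525 of Oas1h and 445 to 504 of the others.
Oas1d: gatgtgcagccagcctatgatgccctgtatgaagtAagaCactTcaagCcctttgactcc
Oas1e: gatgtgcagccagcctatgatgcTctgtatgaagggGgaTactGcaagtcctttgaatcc
Oas1c: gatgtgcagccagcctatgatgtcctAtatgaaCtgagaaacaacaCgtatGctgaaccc
Oas1h: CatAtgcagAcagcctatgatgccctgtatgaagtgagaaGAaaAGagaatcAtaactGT
Oas1g: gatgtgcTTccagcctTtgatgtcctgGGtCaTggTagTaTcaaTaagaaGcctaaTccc
Oas1a: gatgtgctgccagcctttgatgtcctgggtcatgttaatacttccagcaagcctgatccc
In this stretch Oas1d differed from Oas1e at 8 bases, Oas1c at 15, Oas1h at 22 and Oas1g at 25.

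**Figure D1:**
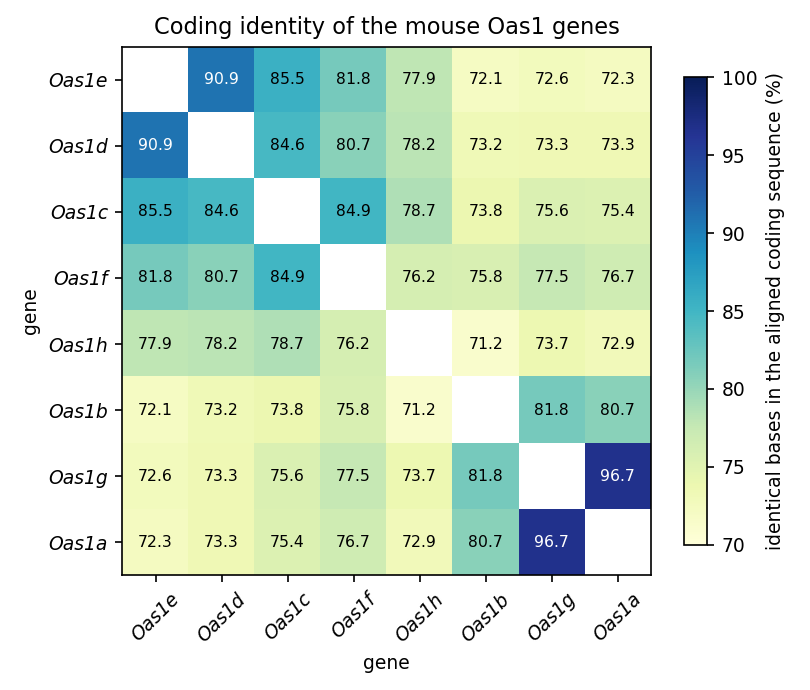
Percent of identical bases between the aligned coding sequences of the 8 mouse Oas1 genes (GENCODE M21, longest protein-coding transcript of each), with genes on both axes and darker cells for higher identity. Oas1e, Oas1d and Oas1c are 84.6% to 90.9% identical to each other, and Oas1g pairs with Oas1a at 96.7%. Oas1f is 84.9% identical to Oas1c, 81.8% to Oas1e and 80.7% to Oas1d.

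Of all 50-base words of its longest protein-coding transcript, Oas1g had 54.7% in common with transcripts of other genes, nearly all of them with Oas1a. Oas1c had 16.3% in common, with Oas1e its closest neighbour in this measure. The share was 11.3% for Oas1e, 6.24% for Oas1d and 0.484% for Oas1h. Of the 198 words that Oas1e shared, 149 lay in Oas1c, which is 8.5% of all its words. The level of Oas1g is therefore uncertain, and those of Oas1c and Oas1e are partly so, since fragments from shared stretches cannot be placed by sequence alone, and how they were divided is not stated. Oas1c and Oas1e each also had words in common with a further gene, Gm43069. Words were matched on both strands, and the sources used here do not say whether counting used strand.

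Promoter sequences were found in RefSeq (GRCm38.p6) for 3 of the 5 members. The 120 bases before the transcription start are shown for them to set beside each other their matches to 1 motif, the core of the interferon-stimulated response element, GAAA followed by any 2 bases and GAAA, searched on both strands with overlaps counted. Capitals mark its matches.
Oas1c (chr5:120812515-120812634, minus strand): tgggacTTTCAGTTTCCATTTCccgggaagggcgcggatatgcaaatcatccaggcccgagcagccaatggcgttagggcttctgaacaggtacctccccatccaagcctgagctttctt
Oas1g (chr5:120887614-120887733, minus strand): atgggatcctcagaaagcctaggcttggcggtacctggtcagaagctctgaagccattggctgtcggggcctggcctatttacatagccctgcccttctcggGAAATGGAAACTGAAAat
Oas1h (chr5:120861302-120861421, plus strand): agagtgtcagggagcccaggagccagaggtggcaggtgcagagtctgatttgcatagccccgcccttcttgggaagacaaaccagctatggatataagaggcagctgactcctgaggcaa
Oas1g held 2 overlapping matches, 3 to 18 bases before its start, and the same letters stand in the promoter of Oas1a. Oas1c also held 2, on the opposite strand and 99 to 114 bases before its start. The printed 120 bases of Oas1c are the whole interval between the starts of Oas1c and of Oas1b, which is read in the other direction, and the matches lie 7 to 22 bases before the Oas1b start. Oas1h held none in the 250 bases searched. Over the same length before 32851 RefSeq starts, 2.98% held the motif. An E-box, CANNTG, stood in Oas1h (66.2% of all) but not in Oas1c or Oas1g, and the NOBOX element TAATTG (7.17% of all) in none of these 3. A CCAAT box, CCAAT on either strand, stood in Oas1c and Oas1g but not in Oas1h (33.8% of all). These are matches of letters in 1 window and were not measured as binding.

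Oas1d had the highest level of the family in every library. Its FPKM was 87.1 and 77.2 in the CROC+K+M libraries, 89.4, 78.4 and 95.4 in the CROC+K libraries, and 70.2 and 72.7 in FOC+K. The whole range was narrow, with a coefficient of variation of 11.4% over 7 libraries, and the CROC+K+M and CROC+K values overlapped. Its mean of 81.5 FPKM lay above 89.6% of the 12272 tested genes.

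Oas1e came second by its mean over the libraries. Its FPKM was 37.0 and 29.3 in CROC+K+M, 54.8, 69.9 and 75.8 in CROC+K, and 52.5 and 41.8 in FOC+K. Both CROC+K+M values were below all 5 others, and all CROC+K values were above both FOC+K values. The coefficient of variation was 33.0%, the largest of the 4 members that passed the filter. It includes the difference that the set was selected on, so this rank is no separate result.

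Oas1c had an FPKM of 25.8 and 19.1 in CROC+K+M, 38.4, 38.9 and 45.6 in CROC+K, and 33.1 and 30.4 in FOC+K. The 3 groups took the same order as for Oas1e, again without overlap. Of all tested genes, 11.2% had CROC+K+M values all below those of CROC+K, and 19.8% all below those of FOC+K. In 9.66% all CROC+K values lay above those of FOC+K. The share with this order of all 3 groups was not counted. Oas1e stood above Oas1c in 7 of 7 libraries.

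For Oas1h the FPKM was 46.7 and 23.6 in CROC+K+M, 20.1, 29.6 and 34.1 in CROC+K, and 31.9 and 24.7 in FOC+K. All 3 groups overlapped. It was below Oas1c in all 5 libraries without melatonin and above it in both CROC+K+M libraries. In FOC+K replicate 1 the values lay close, at 31.9 FPKM for Oas1h and 33.1 FPKM for Oas1c. The order of the 2 genes thus differed between libraries and is not firm.

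Oas1g was listed at 0 in both CROC+K+M libraries, in replicates 1 and 3 of CROC+K and in both FOC+K libraries, and at 1.67 FPKM in CROC+K replicate 2. Its near copy Oas1a was at 0.123 there. With a value in 1 library only, and a sequence it largely shares, no difference between groups can be read for Oas1g.

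**Figure D2:**
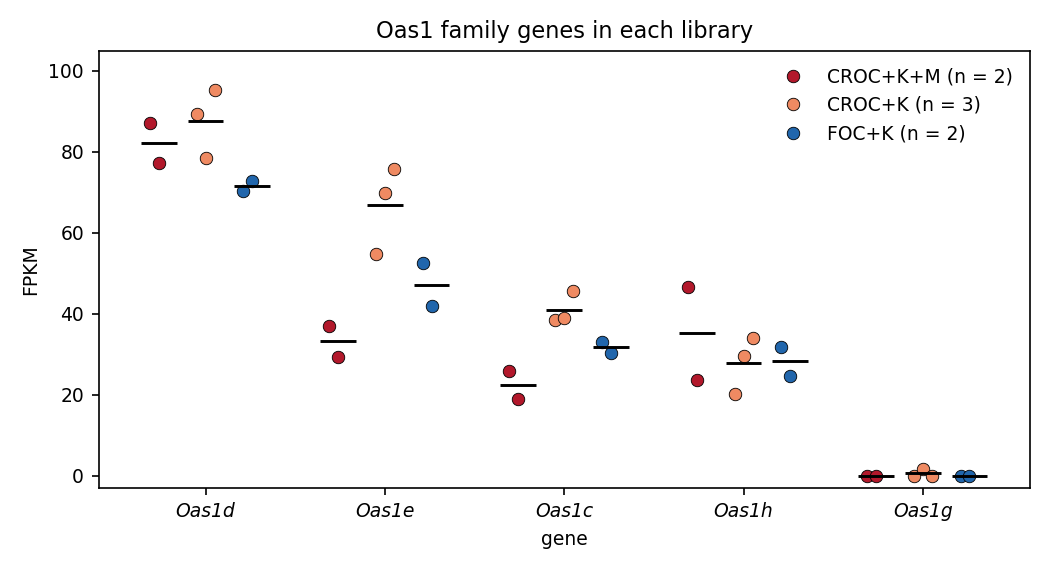
FPKM (linear axis) of the 5 Oas1 genes, with 1 point per library and a bar at each group's mean for CROC+K+M (n = 2), CROC+K (n = 3) and FOC+K (n = 2). The CROC+K+M points lie lowest for Oas1e and Oas1c, the groups of Oas1h overlap, and Oas1g is at 0 in all libraries but 1.

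Several features of the libraries bear on these values. CROC+K+M replicate 1 held all 12 trophectoderm markers of the list used here at an FPKM of at least 1, with a summed 26266 FPKM, of which Fabp3 alone made up 24404, against sums of 55.8 to 138.2 in the other 6 libraries. Cdx2, a defining trophectoderm gene, was at 6.97 in it and at 0 in the others. These markers go against the 2-cell label of that library, and in it the stage and melatonin cannot be told apart, which bears on every CROC+K+M mean given here. Of 10 genes of the 2-cell stage, 9 or 10 were at an FPKM of at least 1 in every library, but their sums varied, with 399.0 and 183.5 FPKM in CROC+K+M, 164.6, 826.9 and 1157 FPKM in CROC+K, and 491.0 and 210.7 FPKM in FOC+K. Within each group these sums stood in the same order as the levels of Oas1e, and their part in those levels was not tested. The 13 cumulus cell markers summed to between 14.5 and 26.6 FPKM, with Ptx3 at 0 in all 7. Rn45s, the ribosomal RNA precursor, was high (1047 to 2114 FPKM) in FOC+K and CROC+K replicate 1 and low (175.4 to 265.7 FPKM) in the other 4. Kdm4a ranged from 497.4 to 4949 FPKM, and its groups overlapped. Within each group its values also stood in the same order as the levels of Oas1e, and its part in those levels was not tested. The FPKM of a library summed to between 552356 and 1017995, and the number of fragments is not given. In pooled embryos, fewer cells of a type and less RNA per cell cannot be told apart.

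Embryos of CROC+K+M and CROC+K differ in melatonin, and theirs is the comparison in which Oas1e was first seen, so its values describe the genes and are not tested. Oas1e averaged 33.2 ± 5.44 FPKM in CROC+K+M (SD, n = 2) and 66.8 ± 10.8 FPKM in CROC+K (SD, n = 3), a log2 change of -0.98 ± 0.28 (SE) on the scale of log2(FPKM + 1). Oas1c averaged 22.4 ± 4.79 FPKM against 41.0 ± 3.97 FPKM, a log2 change of -0.85 ± 0.27. For Oas1d the means were 82.2 ± 7.0 FPKM with melatonin and 87.7 ± 8.60 FPKM without, and the log2 change was -0.09 ± 0.24. Oas1h averaged 35.1 ± 16.4 FPKM in CROC+K+M and 27.9 ± 7.16 FPKM in CROC+K, a log2 change of 0.27 ± 0.38. The 4 members thus split into Oas1e and Oas1c, whose CROC+K+M values were all below those of CROC+K, and Oas1d and Oas1h, whose groups overlapped. Of all 12272 tested genes, 0 (0%) passed the adjusted threshold in limma, 1281 (10.4%) had an unadjusted p under 0.05, 11.2% had CROC+K+M values that were all below those of CROC+K, and 54.1% had a log2 change above 0, with a median of 0.06 over all.

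Without CROC+K+M replicate 1, the library with trophectoderm markers, the log2 change was -1.15 for Oas1e, -1.06 for Oas1c and -0.18 for Oas1d, while that of Oas1h turned to -0.20. Without CROC+K+M replicate 2 it was -0.82 for Oas1e, -0.64 for Oas1c, -0.0057 for Oas1d and 0.75 for Oas1h. In each case the melatonin group is 1 library, so these values have no replicate of their own, and the direction of Oas1h depends on which library is kept. Within the 4 libraries with low Rn45s, 2 in each group, the changes were -1.12 for Oas1e, -0.89 for Oas1c, -0.08 for Oas1d and 0.06 for Oas1h.

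**Figure D3:**
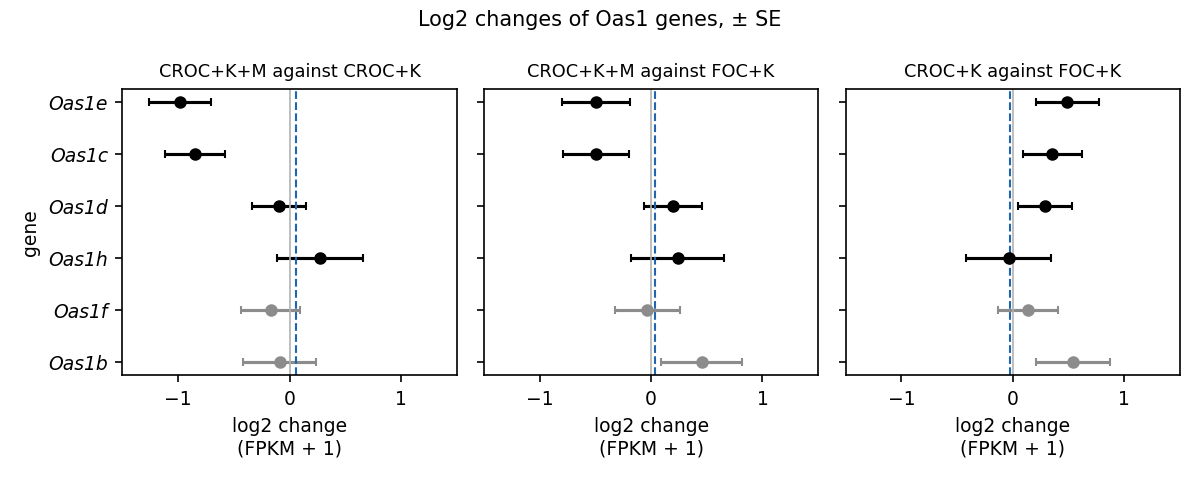
Log2 changes of log2(FPKM + 1) with their standard errors (limma, 7 libraries) for the tested members (black) and for Oas1f and Oas1b (grey) in the 3 comparisons, with the median of all tested genes as a dashed line. Oas1e and Oas1c lie at -0.98 and -0.85 in CROC+K+M over CROC+K, while the other genes lie nearer to 0 there.

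A ratio between 2 genes of 1 library does not depend on how libraries were scaled to one another. The ratio of Oas1e to Oas1d was 0.425 and 0.38 in CROC+K+M, 0.613, 0.892 and 0.794 in CROC+K, and 0.747 and 0.575 in FOC+K. That of Oas1c to Oas1d was 0.297 and 0.247 in CROC+K+M, 0.43, 0.496 and 0.478 in CROC+K, and 0.471 and 0.417 in FOC+K. In both ratios the CROC+K+M libraries were the lowest of the 7. These ratios use the same Oas1e and Oas1c values as the comparison above, among them those the set was selected on, so they are another view of them and no separate support. For Oas1c to Oas1d the CROC+K values (mean 0.468 ± 0.0343, SD) and the FOC+K values (mean 0.444 ± 0.0377, SD) overlapped. Oas1h to Oas1d showed no such order, with 0.536 and 0.305 in CROC+K+M, 0.225 to 0.378 in CROC+K, and 0.454 and 0.34 in FOC+K. In the same values Oas1e made up 18.8% and 19.7% of the summed FPKM of the 5 members in CROC+K+M, 27.0% to 32.0% in CROC+K, and 28.0% and 24.7% in FOC+K.

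**Figure D4:**
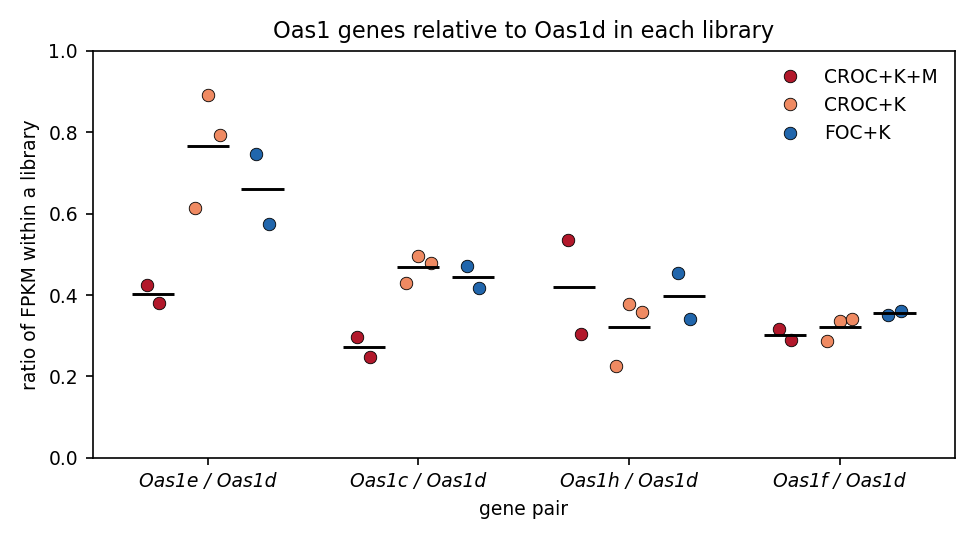
Ratio of the FPKM of Oas1e, Oas1c, Oas1h and Oas1f to that of Oas1d within each library (points) with group means (bars). Oas1e and Oas1c relative to Oas1d are lowest in the 2 CROC+K+M libraries, at 0.38 to 0.425 and 0.247 to 0.297.

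CROC+K+M set beside FOC+K compares embryos that had both vitrification and melatonin with embryos that had neither. It shares the CROC+K+M libraries with the comparison above. The low Oas1e values that the set was selected on enter it, so its p-value for Oas1e is no independent test. Oas1e averaged 33.2 ± 5.44 FPKM in CROC+K+M and 47.1 ± 7.53 FPKM in FOC+K (SD, n = 2 each), a log2 change of -0.49 ± 0.31 (SE; 95% interval -1.21 to 0.22; adjusted p = 0.801 in limma). Oas1c averaged 22.4 ± 4.79 FPKM in CROC+K+M and 31.7 ± 1.92 FPKM in FOC+K, a log2 change of -0.49 ± 0.29 (95% interval -1.18 to 0.19; adjusted p = 0.792 in limma). Oas1d had a higher mean with a change of 0.20 ± 0.26 (adjusted p = 0.906 in limma), which turned to -0.15 after quantile normalization. Equal FPKM sums gave -0.39, where it lay 0.04 above the median of all genes, itself at -0.44. Oas1h had a change of 0.24 ± 0.42 (adjusted p = 0.931 in limma), which was -0.34 with equal FPKM sums, or 0.09 above that median. It turned to -0.40 with the Rn45s split as a term and to -0.24 without CROC+K+M replicate 1. None of the 4 passed the threshold of 0.05. In limma 0 of 12272 genes did (0%), and 793 (6.46%) had an unadjusted p under 0.05. The values of Oas1e and Oas1c did not overlap between the groups and were lower with melatonin, as in 19.8% of all tested genes; those of Oas1d did not overlap and were higher, as in 21.3%. With equal FPKM sums the changes of Oas1e and Oas1c were -1.08 and -1.07, beside a median of -0.44 over all genes (0.04 without this scaling). With the Rn45s split as a term the change of Oas1e was -0.90. Without CROC+K+M replicate 2 that of Oas1c was -0.28. Both CROC+K+M libraries were low in Rn45s and both FOC+K libraries high, and only CROC+K held libraries of each class. The values with the Rn45s term, -0.40 for Oas1h among them, therefore rest on differences within CROC+K and do not separate Rn45s class from group.

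CROC+K beside FOC+K concerns the vitrified and warmed oocyte alone and shares the CROC+K libraries with the first. The CROC+K values of Oas1e were part of the selection too, so its test here is not independent of it. Oas1e averaged 66.8 ± 10.8 FPKM in CROC+K (SD, n = 3) and 47.1 ± 7.53 FPKM in FOC+K (SD, n = 2), a log2 change of 0.49 ± 0.28 (SE; 95% interval -0.16 to 1.14). Oas1c averaged 41.0 ± 3.97 FPKM in CROC+K and 31.7 ± 1.92 FPKM in FOC+K, a change of 0.36 ± 0.27 (95% interval -0.27 to 0.98). With equal FPKM sums these changes were 0.16 and 0.02. Oas1d averaged 87.7 ± 8.60 FPKM in CROC+K and 71.5 ± 1.75 FPKM in FOC+K, a change of 0.29 ± 0.24, which was -0.050 with equal FPKM sums, or 0.25 above the median of all genes, itself at -0.30 there. Oas1h averaged 27.9 ± 7.16 FPKM in CROC+K and 28.3 ± 5.06 FPKM in FOC+K, a change of -0.04 ± 0.38, which turned positive without FOC+K replicate 1 (0.14) or without CROC+K replicate 1 (0.17). The adjusted p was 0.9996 for all 4 in limma, which called 0 of 12272 genes (0%) and gave 269 (2.19%) at an unadjusted p under 0.05. For Oas1c, Oas1d and Oas1e the groups did not overlap and CROC+K was higher, as in 9.66% of all tested genes.

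Among the libraries of high Rn45s, which include replicate 1 alone of CROC+K, the change of Oas1e was 0.22, that of Oas1c 0.27, that of Oas1d 0.32 and that of Oas1h -0.46. Without CROC+K replicate 1 that of Oas1e was 0.63, with an adjusted p of 0.420 in limma (0.420 to 1 over the 13 alternatives).

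Over the 7 libraries Oas1c had the same order of levels as Oas1e, with a Pearson correlation of 0.97 on the log2 scale and a Spearman rho of 1.0. Of the 12271 other tested genes, 11, with Oas1c itself counted among them, had a Pearson correlation with Oas1e at least as high as that of Oas1c. Oas1d (0.36) and Oas1h (0.07) were less like it. The libraries share their preparation and groups, and Oas1c and Oas1e share part of their sequence, so these figures only describe the pattern. The part of shared fragments in it was not tested.

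**Figure D5:**
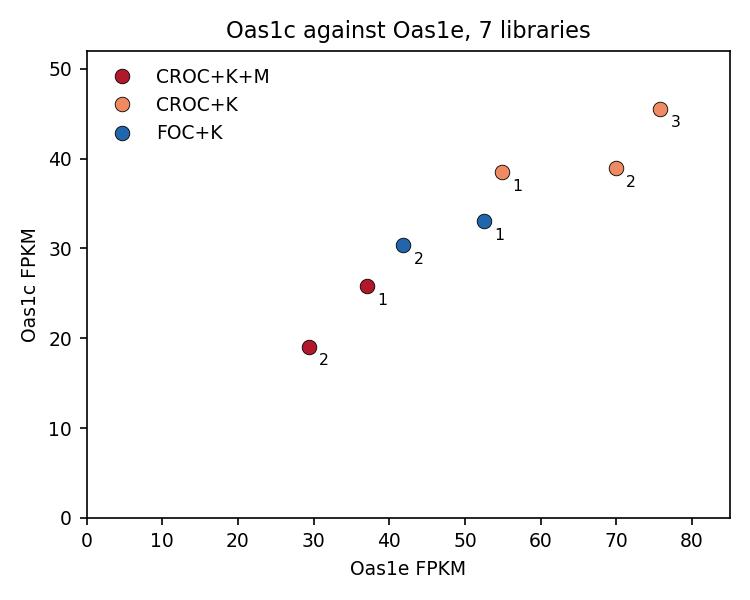
FPKM of Oas1c against FPKM of Oas1e in the 7 libraries, both on linear axes, coloured by group and numbered by replicate. The points rise together, with the 2 CROC+K+M libraries lowest and CROC+K replicate 3 highest.

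The 5 genes outside the family whose pattern was most like that of Oas1e were Bscl2, the gene of the lipid droplet protein seipin (Pearson 0.991), Map1b, a microtubule-associated protein gene (0.984), Arid5b (0.983), Cdc27, a subunit gene of the anaphase-promoting complex (0.980), and Dpf3 (0.979). Bscl2, for example, was at 74.5 and 52.7 FPKM in CROC+K+M, 107.2, 158.9 and 194.2 FPKM in CROC+K, and 108.7 and 76.8 FPKM in FOC+K. Those most like Oas1d were Nthl1, a DNA repair glycosylase gene (0.955), Anapc16, another subunit gene of the same complex (0.954), Sptlc3 (0.932), Cetn2, a centrin gene (0.929), and the histone gene Hist1h2bb (0.929). Of these, Hist1h2bb averaged only 0.817 FPKM over the libraries and Sptlc3 1.60 FPKM, so their likeness rests on low values. Anapc16 was at 116.9 and 107.7 FPKM in CROC+K+M, 117.6, 103.4 and 135.1 FPKM in CROC+K, and 78.0 and 84.95 FPKM in FOC+K. With 7 points and 12272 genes, high values of this measure are found for many genes.

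Among the 7 other Oas genes, Oas1f, a further copy of the cluster, had a level like that of Oas1h. Its FPKM was 27.5 and 22.3 in CROC+K+M, 25.6, 26.3 and 32.6 in CROC+K, and 24.7 and 26.1 in FOC+K, with overlap of all groups. Oas1b, known in mice for resistance to flaviviruses and annotated as a pseudogene in the reference strain, was at 5.85 and 3.8 FPKM in CROC+K+M, 5.77, 4.96 and 4.62 FPKM in CROC+K, and 3.46 and 2.93 FPKM in FOC+K. It shares its start region with Oas1c. Its log2 change for CROC+K+M against CROC+K was -0.09 ± 0.33 (adjusted p = 0.940 in limma). The other 5 were low. Oas1a reached at most 0.889 FPKM and was listed at 0 in 3 libraries, Oas2 at most 0.0474 and Oas3 at most 0.0843. Oasl1 was listed at 0 in both CROC+K+M libraries and at 0.214 to 0.695 FPKM in the others, and Oasl2 ranged from 0.0645 to 1.5 FPKM. Of the 3 that passed the filter, Oas1f, Oas1b and Oasl2, none passed the threshold in any comparison. Between CROC+K+M and CROC+K 0 of these 3 had a log2 change above 0 and 3 below, with a median of -0.17 beside 0.06 for all tested genes.

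Abce1, known as a ribosome recycling factor, was at 31.9 and 18.7 FPKM in CROC+K+M, 28.8, 3.61 and 7.28 FPKM in CROC+K, and 19.9 and 23.7 FPKM in FOC+K, with all groups overlapping. Pde12, which degrades oligoadenylates, was at 4.10 and 4.38 FPKM in CROC+K+M, 2.06, 5.12 and 1.62 FPKM in CROC+K, and 2.80 and 4.17 FPKM in FOC+K. Neither passed the threshold in any comparison.

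Of 20 genes of double-stranded RNA sensing and interferon signalling, 16 passed the filter and 0 passed the threshold in any comparison. With CROC+K+M over CROC+K, 11 had a log2 change above 0 and 5 below (median 0.14). Over FOC+K the numbers for CROC+K+M were 7 and 9 (median -0.06), where 52.9% of all tested genes lay above 0. Those for CROC+K over FOC+K were 2 above and 14 below, with a median of -0.34 beside -0.03 for all tested genes, of which 47.3% lay above 0. In 4 of the 16 all CROC+K values lay below those of FOC+K, as in 9.47% of all tested genes. The highest by mean level were Jak1, a cytokine receptor kinase gene, at 12.9 to 24.7 FPKM over the libraries, Ddx58, which encodes the RNA sensor RIG-I, at 6.18 to 21.9 FPKM, and Irf1, an interferon regulatory transcription factor gene, at 2.43 to 15.0 FPKM.

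Of 22 interferon-stimulated genes 8 passed the filter, 13 stayed under 1 FPKM in every library, and 5 of these were listed at 0 throughout. None of the 8 passed the threshold. With CROC+K+M over CROC+K, 3 had a log2 change above 0 and 5 below, with a median of -0.27. Ifitm3, which encodes an antiviral membrane protein, was at 341.9 and 454.7 FPKM in CROC+K+M, 341.3, 682.8 and 723.3 FPKM in CROC+K, and 318.2 and 358.5 FPKM in FOC+K. Bst2, the tetherin gene, lay between 25.0 and 66.0 FPKM and Ifi35 between 26.7 and 50.4 FPKM.

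Of 25 oocyte genes 24 passed the filter and 0 passed the threshold. With CROC+K+M over CROC+K, 5 had a log2 change above 0 and 19 below, with a median of -0.20. In 9 of the 24 all CROC+K+M values lay below those of CROC+K, against 11.2% of all tested genes. A lower level of maternal genes with melatonin was known from an earlier look at these data and is no independent sign. The part of a general difference in maternal RNA in the levels of Oas1e and Oas1c was not tested. Over FOC+K 16 lay above 0 and 8 below in CROC+K (median 0.11), and 10 and 14 in CROC+K+M (median -0.16). In 10 of the 24 all CROC+K+M values lay below those of FOC+K, and in 4 all lay above, against 19.8% and 21.3% of all tested genes. The highest were Omt2b, Omt2a and Dppa3, the gene of Stella, a protector of maternal DNA methylation. Dppa3 was at 18995 and 21936 FPKM in CROC+K+M, 9630.5, 28800.1 and 30586 FPKM in CROC+K, and 13894.5 and 10568 FPKM in FOC+K. Its CROC+K+M and CROC+K values overlapped.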

How the data were processed

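RNA of 7 libraries of SCNT embryos was measured, each from pooled embryos whose RNA had an integrity number (RIN) over 7.0 by the labels. The authors deposited 1 FPKM value per gene and library; STAR 2.5.2b, Cufflinks 2.2.1, Cuffnorm, R 3.3.2 and build mm9 are named in the submitters' processing notes. The sources used here give neither the annotation nor the scaling between libraries nor the depth, so no counting interval can be given.

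Groups came from the titles. The labels speak of biological replicates, and equal replicate numbers are not said to mark a shared batch. The members and lists were chosen with earlier results of these data known. Values were used as log2(FPKM + 1), which understates changes of low genes. After 1274 rows of small RNA genes and Rn45s were left out, 12272 genes with an FPKM of at least 1 in 2 or more libraries were fitted with limma 3.58.1 (R 4.3.3, intensity trend) over all 7 libraries with 4 residual degrees of freedom. Two-sided tests were used, with Benjamini-Hochberg adjustment over all genes and a threshold of 0.05. No test was made of members in CROC+K+M against CROC+K. Named genes are all members, all other Oas genes, the genes of oligoadenylate signalling (1 of them is not reported here), the 3 highest of each longer list, and the 5 genes most like Oas1e and Oas1d.

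Sequences came from RefSeq and GENCODE M21, both on GRCm38, and were matched by symbol; none were read by mm9 coordinates. MAFFT 7.526 aligned them, and Python 3.11.15 and matplotlib 3.10.9 were used for the rest. Alternatives were a pseudocount of 0.1, no filter, equal FPKM sums, quantile normalization, the replicate number or the Rn45s split as a term, and leaving out each library.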

Additional observations from a re-analysis of the deposited data

How the results depend on the processing

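Over the 13 alternatives the log2 change for CROC+K+M against CROC+K stayed below 0 for Oas1e (-1.23 to -0.82), Oas1c (-1.10 to -0.64) and Oas1d (-0.34 to -0.0057); with equal FPKM sums it was -1.23, -1.10 and -0.34, which lie -1.09, -0.95 and -0.20 from the median of all genes, and for Oas1d it was -0.26 after quantile normalization. Leaving out 1 library each gave -1.06 to -0.64 for Oas1c and -0.20 to 0.75 for Oas1h. For CROC+K+M against FOC+K, Oas1d turned to -0.39 with equal FPKM sums and -0.15 after quantile normalization, and Oas1h to -0.34 with equal FPKM sums and -0.40 with the Rn45s split as a term, with -0.24 to 0.72 when 1 library was left out. With the Rn45s split, these groups share no class and are linked only through the CROC+K libraries. For CROC+K against FOC+K, Oas1d turned to -0.050 with equal FPKM sums, and Oas1h gave -0.22 to 0.17 when 1 library was left out; Oas1e (0.16 to 0.65) and Oas1c (0.02 to 0.42) stayed above 0. Equal sums did not shift all genes by the same amount. For CROC+K+M over FOC+K, Oas1d was then 0.04 and Oas1h 0.09 relative to the median of all genes. Without this scaling they were 0.16 and 0.20 relative to it. For CROC+K over FOC+K, Oas1d was 0.25 relative to the median with equal sums and 0.31 without. These offsets thus stayed above 0 but were smaller with equal sums. The cause of the reversals was not tested. Equal sums moved the median of all genes to -0.14 with melatonin over CROC+K, to -0.44 with melatonin over FOC+K and to -0.30 with CROC+K over FOC+K.

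The number of genes called was 0 in every comparison and alternative except without CROC+K+M replicate 2, where it was 658 with melatonin over CROC+K and 546 with melatonin over FOC+K (0 to 658 and 0 to 546 over the libraries left out); CROC+K+M replicate 1, with its trophectoderm markers, then stands alone for its group and is assumed to vary like the others. With a replicate block 0 genes were called in each comparison, and an unadjusted p under 0.05 was found for 706 genes with melatonin over CROC+K, 543 with melatonin over FOC+K and 97 with CROC+K over FOC+K (without the block 1281, 793 and 269). Under the block the log2 change of Oas1e was -0.89, -0.49 and 0.40 in the same order. Equal numbers did not deviate together: over the tested genes the deviations of CROC+K replicate 1 and FOC+K replicate 1 from their group means had a correlation of -0.46, and those of replicate 1 of CROC+K+M and FOC+K one of -0.0053. In the 2 comparisons in which members were tested, no fit called one, with or without the block. Depth is unknown, so levels under 1 FPKM, those of Oas1g among them, carry no stated precision.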
